A study of Rattus norvegicus with 8 samples.

Results

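The genes described here are 33 members of the unfolded protein response and of its ATF4 branch, read in rat liver with and without dietary pterostilbene. They were chosen by symbol, with no measured value in the rule, but with earlier results of these data known. All 33 were found among the 15115 genes of the authors' deposited table. They comprise 11 chaperones and co-chaperones, 3 disulfide isomerases, 4 genes of the sensing step, 7 genes of the pathway that removes misfolded proteins, 1 translocon subunit, and ATF4 with its targets, 7 genes in all. Livers came from male wild type F344 rats, labelled 1 year old. The CDAA group ate CDAA, a diet of defined L-amino acids without choline that brings about fatty liver and hepatocellular carcinoma, and the CDAA_PTS group ate that diet with pterostilbene, a dimethylated relative of resveratrol, at 1.34 g per kg of diet. The CDAA_PTS rats started with 3 weeks of the compound in a choline-sufficient diet, and the study ran for 60 weeks. The study kept 6 rats per group, of which 4 of each group were sequenced, so all animals compared were choline-deprived and none is a healthy control. The series text also uses the short name of the pterostilbene group for a resveratrol group, and the sample labels were followed. Liver pieces in the study could be tumour, nodule or normal tissue, and the sources used here do not say which piece went into which library.

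Secreted and membrane proteins fold inside the endoplasmic reticulum, and hepatocytes, which make most plasma proteins, carry a large folding load. When unfolded proteins build up, the membrane sensors IRE1 (encoded by Ern1), PERK (Eif2ak3) and ATF6 signal to the nucleus. IRE1 splices Xbp1 mRNA, ATF6 is cut to release a transcription factor, and both raise chaperone and degradation genes. PERK phosphorylates eIF2 alpha, which slows translation in general but favours that of ATF4, the activator of amino acid and stress genes. Gene-level RNA counts read neither the splicing of Xbp1 nor the phosphorylation and cleavage of these proteins.

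Values for single rats were not analysed here, since the deposited table holds 1 FPKM value per diet group and the authors' statistics for the comparison, so no spread between rats can be shown. FPKM, which scales fragments to gene length and library size, allows levels of different genes to be compared. How deeply each library was sequenced is unknown; mean normalized counts add up to 1.39e+07 per the authors' deposited table. Fold changes are log2 values of CDAA_PTS over CDAA, and a gene is called where the authors' edgeR adjusted p over all 15115 genes is under 0.05. The DESeq2 values given with a standard error (SE) are the authors' and are moderated toward 0. In bulk tissue, a change in the share of cells of a type and a change of RNA per cell cannot be told apart.

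With pterostilbene, all 11 chaperones and all 3 disulfide isomerases among the members had higher FPKM values, by small amounts. Lower values were seen for 5 of the 7 genes of the ATF4 arm. Fold changes of 23 members were above 0. None passed the edgeR test: 0 of the 33 members were called per the authors' deposited table, where 3.41% of all genes were. At an unadjusted edgeR p under 0.05, 7 members (21.2%) were higher, against 6.76% of all genes per the authors' deposited table. These were Sdf2l1, Hyou1, Dnajb9, Hsp90b1, Edem1, Derl2 and Ern1. By the same measure 2 members (6.06%), Trib3 and Ddit4, were lower, against 7.86% of all genes per the authors' deposited table, a share near the background. Both of these are among the genes with an edgeR adjusted p under 0.1, as are 5.27% of all genes per the authors' deposited table. The authors' DESeq2 statistics call 0 members at an adjusted p under 0.05, against 4.46% of genes with an adjusted value. At an unadjusted DESeq2 p under 0.05, 9 members were higher (the 7 above with Atf6 and Canx) and 2 lower per the authors' deposited table, against 6.48% and 7.84% of all genes with a p. The authors' Cuffdiff q-values under 0.05 pick out 4 higher members, Sdf2l1, Hyou1, Dnajb9 and Edem1, and 2 lower ones, Trib3 and Ddit4. Cuffdiff so calls 12.1% and 6.06% of the members, against 2.8% and 2.7% of the genes it tested per the authors' deposited table. All members were read in the same 8 libraries, so their fold changes are not independent of each other, and a p that misses the threshold does not show that levels were equal. The list was drawn up with earlier results of these data known, so a share above that of all genes describes the list and is no test.

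**Figure D1:**
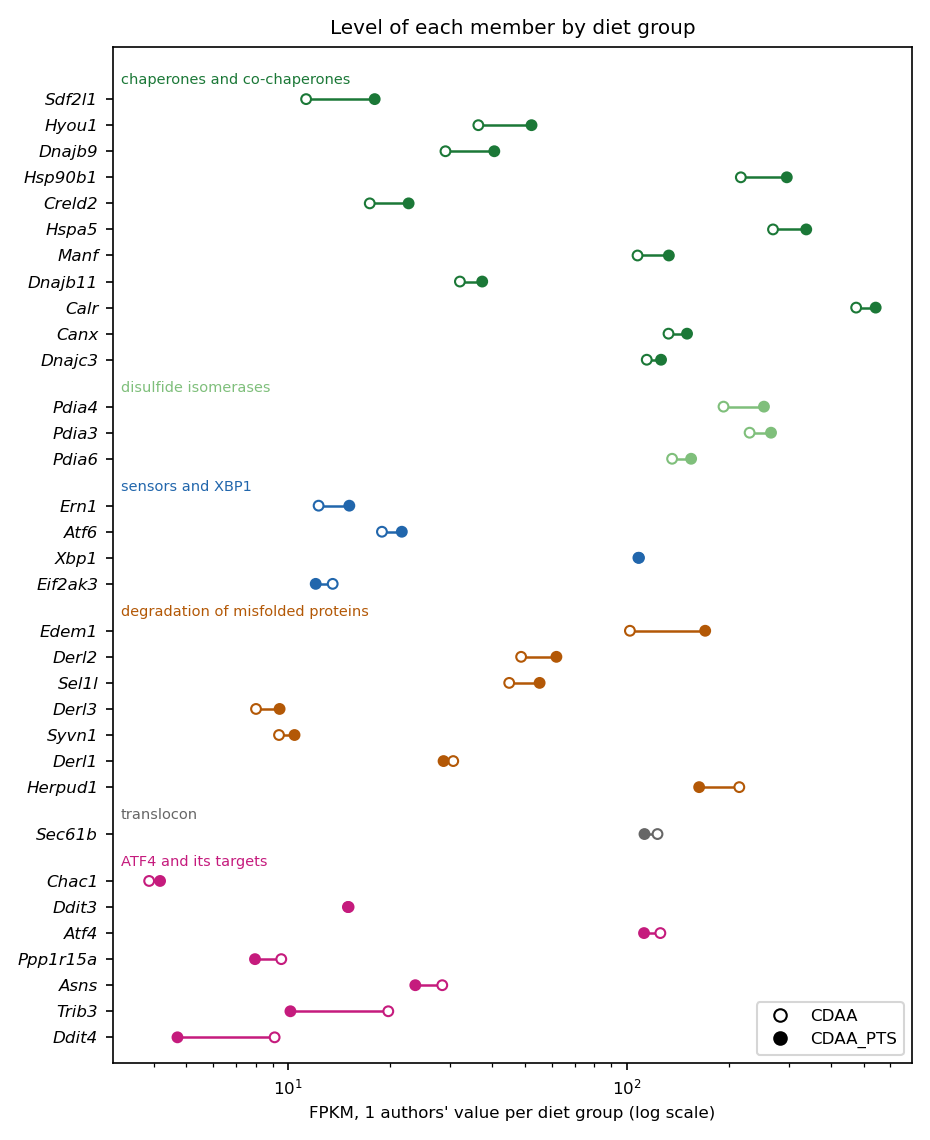
FPKM of each of the 33 members in CDAA (open circles) and CDAA_PTS (filled circles) on a log scale, 1 authors' value per diet group, ordered by role and fold change. Every chaperone and isomerase has its filled circle to the right, while Trib3 and Ddit4 at the foot of the plot show the widest gaps to the left.

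The chaperones of the lumen included the most abundant members. Calr (calreticulin), a calcium-binding lectin that holds newly made glycoproteins, had the highest level of the 33 at 543 FPKM in CDAA_PTS against 475 in CDAA, per the authors' deposited table. Hspa5, the HSP70 of the lumen known as BiP, which also holds the sensors inactive, stood at 338 and 270.0 FPKM per the authors' deposited table. Hsp90b1, the HSP90 of the lumen known as GRP94, stood at 296 and 217 FPKM per the authors' deposited table. Each lies above at least 97.8% of all genes in the CDAA group. Summed over the 11 genes, the authors' FPKM values came to 1758 in CDAA_PTS and 1443 in CDAA, a ratio of 1.22.

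Promoters of these genes are known for the endoplasmic reticulum stress element (ERSE), in which CCAAT and CCACG stand 9 bases apart, and which binds NF-Y together with cleaved ATF6 or XBP1. A second form, ERSE-II, has ATTGG and CCACG separated by 1 base. RefSeq promoter windows of the GRCr8 rat genome, from 250 bases before to 50 after the annotated start of a gene, were matched by symbol for 27 of the 33 members. Derl1, Pdia3, Pdia6, Ern1, Atf6 and Manf had none. On either strand, an exact ERSE was found in 8 of the 27 (Hspa5, Hsp90b1, Calr, Canx, Dnajc3, Creld2, Xbp1 and Derl3). A gene can have several windows, and ERSE was in 22 of all 33469 promoter windows (0.0657%), or 21 of 27457 genes. ERSE-II was found in 3 of the 27 (Hyou1, Dnajb11 and Herpud1), against 17 of all windows (0.0508%), or 17 of 27457 genes. The members were listed for a response that is known to use these elements, so the excess describes the list and is no result of the diet.

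The promoters of Hspa5, Hsp90b1 and Hyou1 are shown whole as examples of chaperones that hold the elements and have high levels or larger fold changes. All sequences are RefSeq, GRCr8, 5′ to 3′ on the strand of the gene, and capitals mark the matched motifs, which read as the reverse complement where the match is on the opposite strand. Hspa5 at chr3:38452766-38453065 (plus strand) holds ERSE from base -43 to -25. Hsp90b1 at chr7:23012244-23012543 (minus strand) holds a forward match from -176 to -158 and a reverse match from -72 to -54. Hyou1 at chr8:53602632-53602931 (plus strand) holds reverse ERSE-II matches from -188 to -178 and from -88 to -78, the former overlapping a forward TGACGTGG at -191, the element of XBP1 and ATF6 known as UPRE. Hyou1 has a second annotated start, whose window holds none of these.
Hspa5: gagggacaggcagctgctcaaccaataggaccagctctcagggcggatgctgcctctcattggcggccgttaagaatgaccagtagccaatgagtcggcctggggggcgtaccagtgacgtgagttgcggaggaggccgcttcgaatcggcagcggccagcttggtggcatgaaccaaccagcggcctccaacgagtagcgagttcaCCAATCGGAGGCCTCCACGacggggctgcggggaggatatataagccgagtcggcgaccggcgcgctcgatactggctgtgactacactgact
Hsp90b1: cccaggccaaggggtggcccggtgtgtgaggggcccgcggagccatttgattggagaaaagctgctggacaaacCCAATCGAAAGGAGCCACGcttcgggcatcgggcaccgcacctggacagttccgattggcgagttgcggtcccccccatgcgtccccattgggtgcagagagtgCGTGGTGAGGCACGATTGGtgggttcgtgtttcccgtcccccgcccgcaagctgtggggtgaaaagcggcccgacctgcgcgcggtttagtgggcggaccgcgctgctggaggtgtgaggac
Hyou1: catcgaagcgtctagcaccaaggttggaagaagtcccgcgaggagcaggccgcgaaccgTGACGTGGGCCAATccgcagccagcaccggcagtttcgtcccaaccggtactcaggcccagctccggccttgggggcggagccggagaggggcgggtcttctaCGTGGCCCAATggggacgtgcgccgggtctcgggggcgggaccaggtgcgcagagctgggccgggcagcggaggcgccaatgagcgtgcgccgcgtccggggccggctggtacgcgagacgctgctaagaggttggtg

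The other chaperone elements are shown with 12 bases on each side, so that the fixed ends and the free middle of the motif can be compared. Calr lies at chr19:40213123-40213165 (plus strand), Canx at chr10:35158057-35158099 (minus), Dnajc3 at chr15:102432522-102432564 (plus), Creld2 at chr7:121789227-121789269 (plus) and Dnajb11 at chr11:91672788-91672822 (minus). In Calr and Creld2 the match is on the opposite strand.
Calr: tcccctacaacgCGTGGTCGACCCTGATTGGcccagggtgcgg
Canx: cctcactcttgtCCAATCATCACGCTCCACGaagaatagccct
Dnajc3: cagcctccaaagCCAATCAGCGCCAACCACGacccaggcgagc
Creld2: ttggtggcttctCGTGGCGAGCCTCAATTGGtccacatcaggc
Dnajb11: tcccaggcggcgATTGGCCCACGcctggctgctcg

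**Figure D2:**
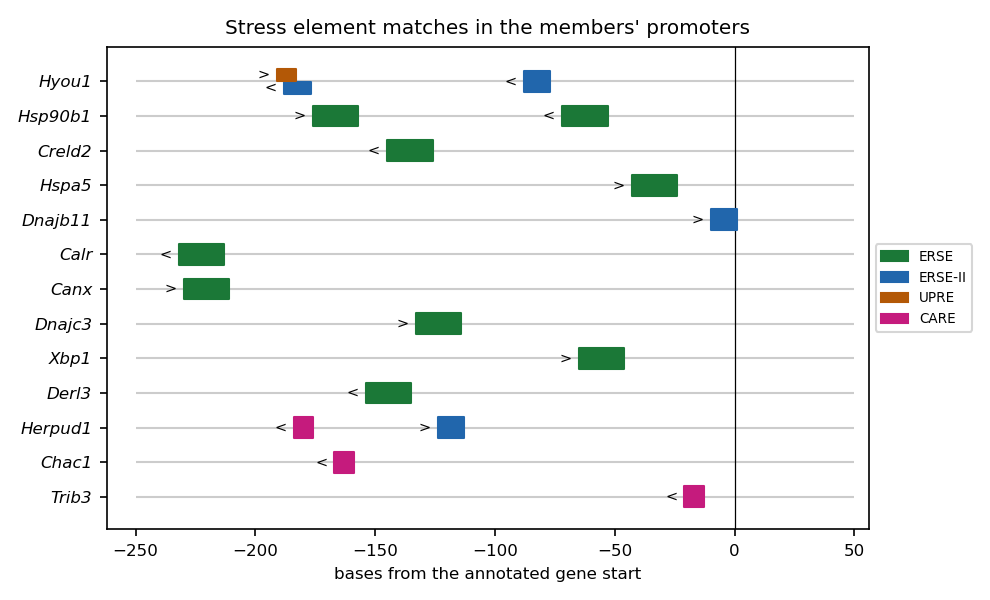
Positions of motif matches in the 13 member promoters with at least 1, as bases from the annotated gene start, with arrowheads giving the strand relative to the gene. ERSE and ERSE-II matches lie between -232 and 1, counted without a base 0, and the matches of CARE, the element of ATF4, are in Herpud1, Chac1 and Trib3.

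Fold changes of the 11 chaperones ran from 0.14 to 0.66 with a median of 0.32, against a median of 0.0063 over all genes and 7715 of the 15115 genes above 0, in the edgeR block of the authors' deposited table. Sdf2l1 (ENSRNOG00000001859), a partner of the lumenal DnaJ proteins, had the largest at 0.66 (adjusted p 0.22 by edgeR), with 18.0 FPKM in CDAA_PTS and 11.3 in CDAA per the authors' deposited table. Its locus is chromosome 11, 88122270 to 88124513 (rn6, per the authors' deposited table). Hyou1 (ENSRNOG00000010944), an HSP110 relative that exchanges the nucleotide of BiP, had a fold change of 0.52 (adjusted p 0.16 by edgeR) from 36.4 to 52.3 FPKM per the authors' deposited table. The DESeq2 values of Sdf2l1 and Hyou1 were 0.45 (SE 0.20) and 0.42 (SE 0.17) per the authors' deposited table. Both are therefore more than 2 SE from 0 and still miss the adjusted threshold over all genes.

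Dnajb9 (ERdj4), a BiP co-chaperone that also holds IRE1 inactive, stood at 40.6 FPKM in CDAA_PTS and 29.1 in CDAA, a fold change of 0.47 (adjusted p 0.25 by edgeR, per the authors' deposited table). Hsp90b1 had 0.43 (adjusted p 0.16 by edgeR) and Hspa5 0.32 (adjusted p 0.45 by edgeR) per the authors' deposited table. The Cuffdiff q-values were 0.15 for Hsp90b1 and 0.43 for Hspa5, but 0.0019 for Sdf2l1, 0.011 for Hyou1 and 0.020 for Dnajb9 per the authors' deposited table. These calls did not sort the chaperones by abundance. Dnajb11 (37.4 FPKM in CDAA_PTS, Cuffdiff q 0.53) and Creld2 (22.7 FPKM, Cuffdiff q 0.13) were less abundant than Dnajb9 and not called. Creld2 and Manf are small secretable proteins of the response, MANF being a BiP cofactor. They stood at 22.7 against 17.4 FPKM and 133 against 107 FPKM per the authors' deposited table, fold changes of 0.38 and 0.30 (adjusted p 0.51 and 0.49 by edgeR).

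The smallest fold changes among chaperones belonged to the lectins and to 2 DnaJ proteins. Calr had 0.18 and Canx, the membrane-bound lectin calnexin, 0.17 (adjusted p 0.76 and 0.53 by edgeR, per the authors' deposited table). Dnajb11 (ERdj3) had 0.21 and Dnajc3 (P58IPK), which also restrains PERK, 0.14 (adjusted p 0.67 and 0.78 by edgeR, per the authors' deposited table). Canx was measured with the smallest error of the 33, a DESeq2 value of 0.16 (SE 0.079) per the authors' deposited table. Its value of 150.5 FPKM in CDAA_PTS and 132.6 in CDAA is thus a small difference at high precision. The members with an exact ERSE or ERSE-II had a median edgeR fold change of 0.18 over 11 genes, and the 16 whose window holds neither had 0.072, ranges of -0.39 to 0.52 and -0.98 to 0.69 per the authors' deposited table. The 16 include all 7 members of the ATF4 arm, whose own median was -0.23, so role and motif are mixed in this comparison. No link of the motif to the fold change is read from it. The ranges overlap, and Sdf2l1, Dnajb9 and Edem1, among the largest fold changes, have neither form in this window.

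The disulfide isomerases among the members, which form and reshuffle the disulfide bonds of client proteins, lay close together. Pdia3 (ERp57), the partner of both lectins, stood at 266 FPKM in CDAA_PTS and 230.2 in CDAA, Pdia4 (ERp72) at 254 and 193, and Pdia6 (P5), which also attenuates the sensors, at 155 and 136 per the authors' deposited table. Their edgeR fold changes were 0.21, 0.24 and 0.18 (adjusted p 0.50, 0.65 and 0.64 by edgeR, per the authors' deposited table). Each was smaller than the chaperone median. Related genes outside the members were read with the wider folding genes. P4hb, at 732 FPKM in CDAA_PTS and 788 in CDAA, had an edgeR fold change of -0.11. Pdia5 had 0.015, Txndc5 -0.18 and Txndc11 -0.028. The higher values of the members therefore do not hold for isomerases in general. For Pdia4, the Cuffdiff ratio of 0.40 was larger than its edgeR value, the widest gap between these tools among the members, at 0.16. Pdia4 shares its Cuffdiff locus identifier with the row AABR07060522.1 per the authors' deposited table. Pdia3 shares its listed interval with 6 other rows, and Dnajc3, Syvn1, Derl3 and Ddit3 with 1 each, so reads of neighbours may be mixed where genes overlap.

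The sensing step showed no shared direction. Ern1 stood at 15.1 FPKM in CDAA_PTS and 12.3 in CDAA and had the largest fold change of the 4, 0.33 (adjusted p 0.27 by edgeR, per the authors' deposited table). Atf6 stood at 21.6 and 18.9 FPKM with a fold change of 0.19 (adjusted p 0.44 by edgeR), and Eif2ak3 at 12.0 and 13.5 FPKM with -0.17 (adjusted p 0.57 by edgeR), per the authors' deposited table. These membrane sensors were far less abundant than Calr, Hspa5 and Hsp90b1, but not below every chaperone, since Sdf2l1 was lower than all of them in CDAA. Xbp1, whose spliced mRNA encodes the transcription factor, differed least of the 4, at 108.1 FPKM in CDAA_PTS and 108.5 in CDAA with a fold change of -0.019 (adjusted p 0.99 by edgeR, per the authors' deposited table). The authors' DESeq2 value and SE give Xbp1 a 95% interval of -0.24 to 0.20, on the moderated scale. Its promoter window at chr14:84604546-84604588 (plus strand, GRCr8) holds a forward ERSE from -65 to -47, shown for comparison with the chaperones.
Xbp1: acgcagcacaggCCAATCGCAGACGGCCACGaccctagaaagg

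Genes of endoplasmic reticulum-associated degradation, which carries misfolded proteins to the proteasome, split 5 above 0 and 2 below. Edem1 (ENSRNOG00000055365), a lectin that hands mannose-trimmed glycoproteins to the degradation complex, had the largest positive fold change of all 33 members, 0.69 (adjusted p 0.29 by edgeR), at 170.2 FPKM in CDAA_PTS and 102.0 in CDAA per the authors' deposited table. Its locus is chromosome 4, 140886544 to 140915779 (rn6, per the authors' deposited table). The DESeq2 value was 0.44 (SE 0.20), per the authors' deposited table, although Edem1 averaged 441 CPM, a level at which Pdia3 had an SE of 0.11. The SE of Edem1 is thus large for its abundance, and Cuffdiff, with a q of 0.0019 per the authors' deposited table, calls it.

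Herpud1, a membrane adaptor of the same complex, had the lowest fold change of these genes. It stood at 163 FPKM in CDAA_PTS and 215 in CDAA, a fold change of -0.39 (adjusted p 0.60 by edgeR, per the authors' deposited table). Its promoter is shown because it holds elements of both branches. A forward ERSE-II lies from -124 to -114 at chr19:10614809-10614843 and a reverse CARE (CEBP-ATF response element, searched as TGATGNAA) from -184 to -177 at chr19:10614872-10614903, both minus strand, GRCr8.
Herpud1 ERSE-II: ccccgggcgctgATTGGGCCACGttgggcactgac
Herpud1 CARE: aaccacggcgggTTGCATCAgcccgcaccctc

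Syvn1 (HRD1) is the ubiquitin ligase of the pathway and Sel1l its adaptor, and Sel1l and Syvn1 stood at 55.2 against 44.9 FPKM and 10.4 against 9.39 FPKM per the authors' deposited table. Their fold changes were 0.30 and 0.14 (adjusted p 0.50 and 0.77 by edgeR, per the authors' deposited table). The derlins, rhomboid-like channel proteins, did not share a direction. Derl2 had 0.37 (adjusted p 0.15 by edgeR) at 61.9 against 48.7 FPKM, and Derl1 -0.097 (adjusted p 0.78 by edgeR) at 28.7 against 30.7 FPKM per the authors' deposited table. Derl3, the least abundant of them, stood at 9.42 against 8.03 FPKM, a fold change of 0.15 (adjusted p 0.97 by edgeR, per the authors' deposited table). Sec61b, a subunit of the channel through which proteins enter the reticulum, stood at 113 FPKM in CDAA_PTS and 123 in CDAA, with a fold change of -0.14 (adjusted p 0.71 by edgeR, per the authors' deposited table).

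In the ATF4 arm, the 2 members with the largest differences were Ddit4 and Trib3, both lower with pterostilbene. Ddit4 (REDD1, ENSRNOG00000057078), an inhibitor of mTORC1, stood at 4.71 FPKM in CDAA_PTS and 9.11 in CDAA, a fold change of -0.98 (adjusted p 0.064 by edgeR, per the authors' deposited table). Trib3 (ENSRNOG00000007319), a pseudokinase that binds AKT and ATF4, stood at 10.1 and 19.7 FPKM, a fold change of -0.95 (adjusted p 0.066 by edgeR, per the authors' deposited table). No member reached an edgeR log2 change of 1 in size. DESeq2 gave -0.62 (SE 0.20) for Ddit4 and -0.61 (SE 0.20) for Trib3 (DESeq2 adjusted p 0.054 and 0.053, authors' deposited table). Both therefore lie just outside the threshold in edgeR and DESeq2, while Cuffdiff calls both (q 0.0019, authors' deposited table). Ddit4 lies on chromosome 20, 29509288 to 29511382, and Trib3 on chromosome 3, 147813472 to 147819571 (rn6, per the authors' deposited table).

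Promoter windows of these 2 genes differ in the ATF4 element. CARE was found in Trib3, Chac1 and Herpud1, 3 of the 27 members with a window, and the Ddit4 window holds no such letters. It was in 1332 of all 33469 windows (3.98%), or 1141 of 27457 genes. The Trib3 window is shown whole, at chr3:161275484-161275783 (minus strand, GRCr8), with the reverse match from -21 to -14, beside the Chac1 match from -167 to -160 at chr3:126795952-126795983 (plus strand).
Trib3: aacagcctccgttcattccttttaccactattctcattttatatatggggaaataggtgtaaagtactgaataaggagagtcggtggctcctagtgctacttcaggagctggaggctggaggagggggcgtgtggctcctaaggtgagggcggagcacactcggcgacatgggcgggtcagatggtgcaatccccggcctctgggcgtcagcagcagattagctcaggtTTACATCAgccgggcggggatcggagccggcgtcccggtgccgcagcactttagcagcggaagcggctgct
Chac1: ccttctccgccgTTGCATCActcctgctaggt

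The other members of the arm differed less. Atf4 itself stood at 112 FPKM in CDAA_PTS and 125 in CDAA, a fold change of -0.16 (adjusted p 0.69 by edgeR, per the authors' deposited table). Asns, asparagine synthetase, stood at 23.7 and 28.5 FPKM with -0.28 (adjusted p 0.47 by edgeR), and Ppp1r15a (GADD34), the phosphatase subunit that reverses eIF2 alpha phosphorylation, at 7.97 and 9.53 FPKM with -0.23 (adjusted p 0.71 by edgeR), per the authors' deposited table. Ddit3 (CHOP), the transcription factor linked to cell death in prolonged stress, showed next to no difference, at 15.1 FPKM in CDAA_PTS and 15.0 in CDAA (fold change 0.0062, edgeR adjusted p 1, authors' deposited table). The authors' DESeq2 value and SE give Ddit3 a 95% interval of -0.29 to 0.30 on the moderated scale. Chac1, which degrades glutathione, was the least abundant of the 33 in FPKM, at 4.18 in CDAA_PTS and 3.88 in CDAA, a fold change of 0.14 (adjusted p 0.95 by edgeR, per the authors' deposited table). Of Trib3, Asns and Chac1, all textbook ATF4 targets, only Chac1 had a positive fold change. The DESeq2 95% intervals of Asns (-0.54 to 0.053) and Chac1 (-0.34 to 0.49) span both signs, so a shared direction cannot be judged.

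**Figure D3:**
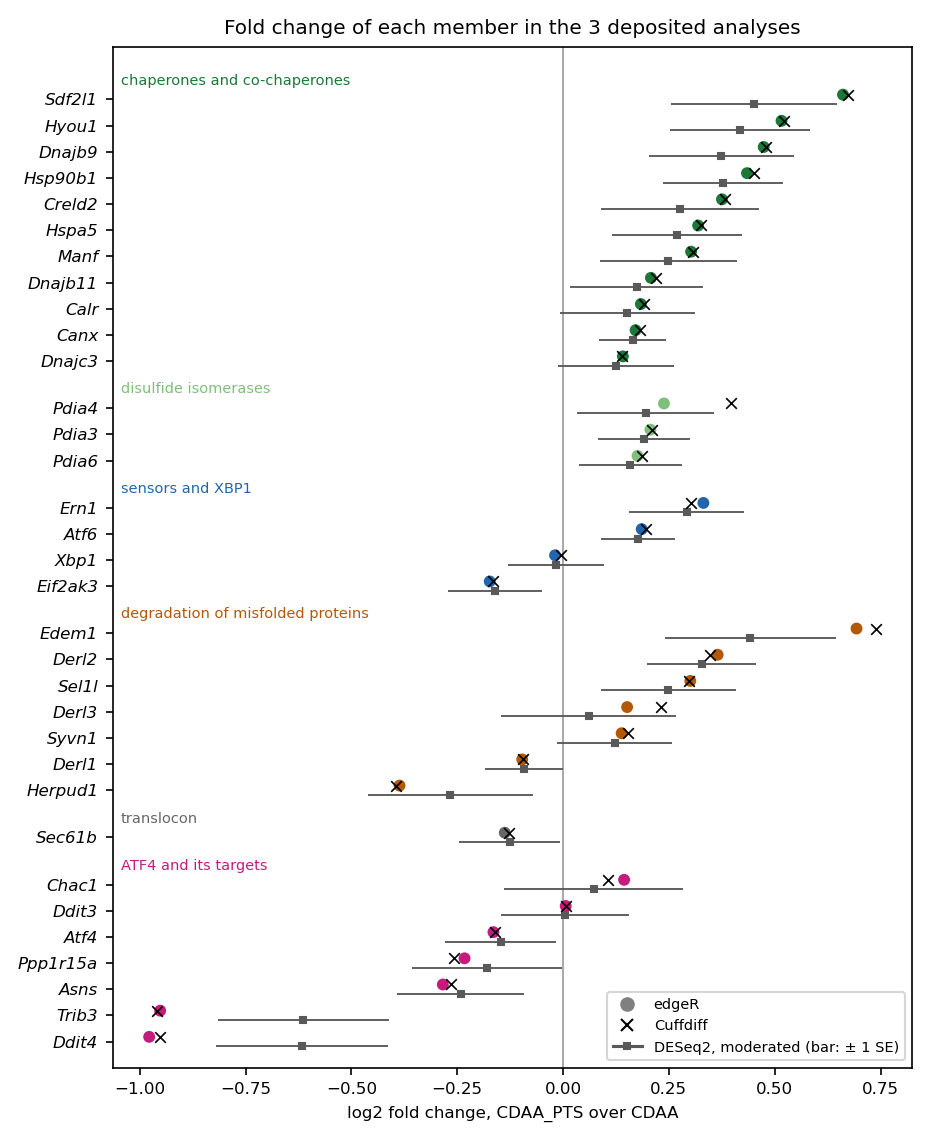
Log2 fold change (CDAA_PTS over CDAA) of each member in the edgeR (coloured circles), Cuffdiff (crosses) and DESeq2 (squares, bars ± 1 SE) blocks of the authors' deposited table. The sign is the same in all 3 blocks for all 33 members, and the DESeq2 values of Trib3, Ddit4 and Edem1 are drawn in toward 0.

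Set side by side, the role groups had median edgeR fold changes of 0.32 for chaperones, 0.21 for isomerases, 0.15 for degradation, 0.083 for the sensing step and -0.23 for the ATF4 arm, per the authors' deposited table. Members above 0 numbered 11 of 11, 3 of 3, 5 of 7, 2 of 4 and 2 of 7 in that order. Ratios of summed FPKM, CDAA_PTS over CDAA, were 1.22 for the chaperones and 1.21 for the 3 member isomerases, per the authors' deposited table. They were 1.09 for degradation, 1.02 for the sensing step and 0.843 for the ATF4 arm. The degradation ratio rests on Edem1, which stood at 170.2 FPKM in CDAA_PTS and 102.0 in CDAA. The sums of all 7 degradation genes were 499 and 458 FPKM, a smaller difference than that of Edem1. Herpud1 went the other way, at 163 and 215 FPKM. The difference between chaperones and ATF4 arm was not tested, since that would need values per rat. Abundance ranges of the groups overlapped. The chaperones and isomerases averaged 14.4 to 956 CPM and the ATF4 arm 6.72 to 162 CPM over all libraries, while all 33 averaged over 1 CPM per the authors' deposited table. The 2 members with the lowest fold changes averaged 12.2 CPM (Ddit4) and 29.9 CPM (Trib3) per the authors' deposited table.

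**Figure D4:**
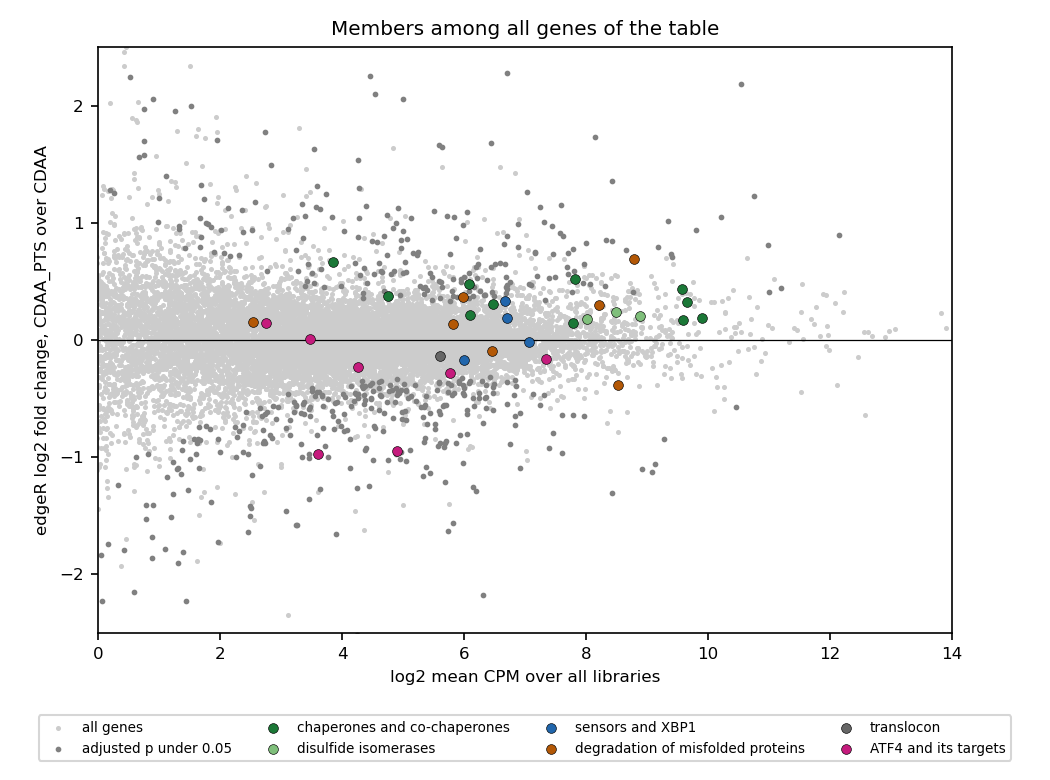
EdgeR log2 fold change against log2 mean CPM for the genes of the authors' deposited table (light grey, those with an adjusted p under 0.05 darker) and the members coloured by role. The axes leave out 1910 genes under 1 CPM or beyond the limits. The chaperones lie above 0 from the middle of the abundance range to its high end, and Trib3 and Ddit4 lie lowest of the members.

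Genes of the same pathways outside the 33 centred close to 0 or below it. Of 131 measured genes in 8 wider lists, 0 rose, 2 fell and 129 did not pass, and 48 were above 0 and 83 below, in the edgeR block of the authors' deposited table, where 3.41% of all genes were called in either direction. Further folding and glycan-trimming genes (20 measured, median -0.0067), translocation and glycosylation genes (26, median -0.0039) and degradation genes (17, median -0.059) centred near 0 and held no called gene per the authors' deposited table. The same was so of eIF2 kinases, subunits and exchange factors (15, median 0.013), and of tRNA synthetases (12, median -0.056). Transducers such as the site proteases and NF-Y subunits (14, median -0.078) and amino acid synthesis and transport genes of the ATF4 programme (14, median -0.19) had 11 genes below 0 each and none called per the authors' deposited table.

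Regulators linked to ATF4 had the lowest median of the wider lists, -0.30, with 12 of 13 below 0 and 2 that fell in the edgeR block of the authors' deposited table. Over all genes, 3.41% were called in either direction. The lists were chosen with earlier results of these data known, so nothing particular to this list is read from that count. Atf3, a stress-induced repressor downstream of ATF4 and other signals, fell by 1.58 on the log2 scale, from 7.29 FPKM in CDAA to 2.34 in CDAA_PTS (adjusted p 9.0e-05 by edgeR, per the authors' deposited table). Cebpb, a bZIP partner of ATF4 that also answers to cytokines and feeding, fell by 0.73, from 20.0 to 12.0 FPKM (adjusted p 0.00047 by edgeR, per the authors' deposited table). Both genes respond to much besides ATF4, and what lowered them was not tested. The amino acid genes and tRNA synthetases of the ATF4 programme had medians of -0.19 and -0.056, and the ATF4 arm -0.23.

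**Figure D5:**
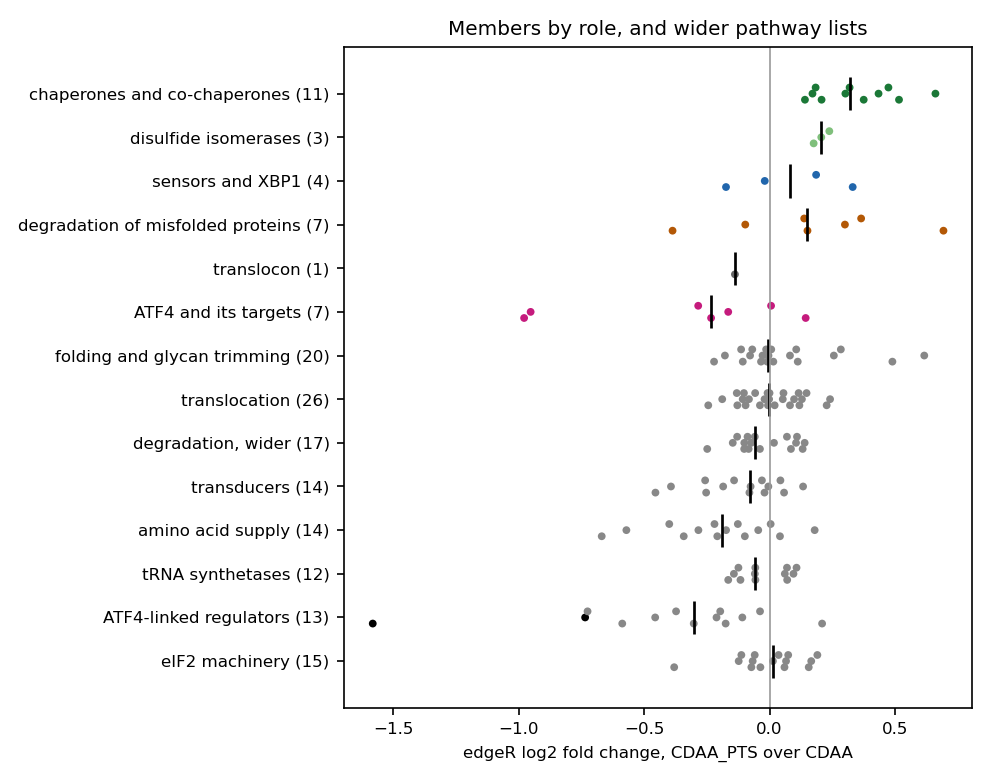
EdgeR log2 fold change of each measured gene (points) by role group and by wider pathway list, with the number measured in brackets and the median as a bar. Black points, Atf3 and Cebpb, have an adjusted p under 0.05, and the chaperones are the list that lies farthest to the right.

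Cell type markers were read beside these results. Hepatocyte markers were abundant, such as Apob at 1307 and Ttr at 7034 FPKM in CDAA_PTS, and 0 of 10 were called per the authors' deposited table. Their summed levels were 42529 FPKM in CDAA_PTS and 37223 in CDAA, a ratio of 1.14, with 4 of 10 above 0 and a median edgeR fold change of -0.055 per the authors' deposited table. Tf had the largest part in that difference of sums, at 21593 against 15748 FPKM, although its edgeR fold change was -0.059 per the authors' deposited table. Alb is listed at 0 FPKM in both groups although it had the highest mean CPM of the table, so a listed 0 can be a failed estimate, and the lowest FPKM of any member was 3.88. Plasma cells, which also express chaperones and Derl3 strongly, had 5 of 8 listed markers measured, with Jchain at 9.42 and 7.84 FPKM and summed levels of 47.8 FPKM in CDAA_PTS and 51.3 in CDAA per the authors' deposited table. Most of that sum was Sdc1, which hepatocytes also express, at 36.9 and 42.1 FPKM. In the same order and table, summed levels were 243 and 242 FPKM for 8 macrophage markers, 210.4 and 211 for 7 stellate cell markers, 87.8 and 74.9 for 6 cholangiocyte markers, 32.8 and 30.8 for 6 T and NK cell markers, 63.5 and 60.8 for 5 endothelial markers, and 829 and 632 for 7 tumour and proliferation markers, of which Gstp1 made up 736 and 550.0. None of the 54 markers was called by edgeR. At an unadjusted edgeR p under 0.05, 3 were higher and 2 lower, against 6.76% and 7.86% of all genes per the authors' deposited table. All 6 cholangiocyte markers were above 0, with a median edgeR fold change of 0.23. Of the 6 T and NK cell markers, 5 were above 0 and 1 below, with a median of 0.37. Cd4, at 22.9 FPKM in both groups, made up most of the T and NK cell sum. Cuffdiff calls 2 markers, both higher with pterostilbene: Sox9, a cholangiocyte marker (4.41 against 3.04 FPKM, q 0.043), and Ggt1, a tumour marker (8.91 against 5.36 FPKM, q 0.0088), per the authors' deposited table. It called 2.8% of all genes it tested higher, so nothing is read from that count. The part of cell or tissue composition in the members' values was not tested.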

How the data were processed

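Liver RNA of 8 rats, 4 per diet, was extracted with Trizol and made into TruSeq RNA libraries, per the labels' protocols. The submitters' processing notes name edgeR, DESeq2, Cufflinks, TopHat2 and FastQC, and build rn6, with no versions. The counter, model designs, filters and strand setting were not given in the sources used here. Only 1 deposited table was analysed, a comparison over 15115 genes, with 0 per-sample columns left unused. Per the file headers, its DESeq2 block gives a signal (mean count divided by size factors), a log2 fold change with its SE, a Wald score and p-values. Its edgeR block, also deposited by the authors, gives log2 fold changes, log2 mean CPM, p-values and adjusted p-values. The deposited Cuffdiff block gives 1 FPKM per group, a log2 ratio, a test score and q-values. The listed intervals are Cuffdiff loci and can span several genes.

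No count model was run, since the table has no counts per library: the authors' edgeR adjusted p stood in for the quasi-likelihood test first planned. Group medians, sums and counts were computed with Python 3.11.15 and pandas 2.3.3. Benjamini-Hochberg adjustment was checked on simulated p-values and against the deposited values. Intervals are the authors' DESeq2 value ± 1.96 SE. Alternatives were the authors' DESeq2 and Cuffdiff statistics, a minimum of 1 CPM, other thresholds, and FPKM ratios with pseudocounts of 0 or 1. Motifs were searched on both strands of 33469 RefSeq promoter windows (GRCr8), matched by symbol only. Lists and members were chosen with earlier results of these data known. All 33 members are named, as is every wider-list gene with an adjusted p under 0.05. P-values measure variation between rats only as the authors' models estimated it, and the rats shared cages, per the labels.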

Additional observations from a re-analysis of the deposited data

How the results depend on the processing

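The count of members called was 0 in edgeR, in DESeq2 and after adjusting again over genes of at least 1 CPM. It was 6 with Cuffdiff, 2 at an edgeR adjusted p under 0.1 and 9 at an unadjusted p under 0.05, and all 6 members that Cuffdiff calls are among these 9. The genes called among the 131 of the wider lists numbered 2 in edgeR, 4 in DESeq2 and 5 in Cuffdiff, each including Atf3 and Cebpb. Over all genes tested, edgeR called 3.41%, DESeq2 4.46%, and Cuffdiff 2.8% higher and 2.7% lower. No excess is read from the wider-list counts. DESeq2 adds Ero1b and Eif2b2, and Cuffdiff adds Ero1b, Mthfd2 and Slc1a5, all named after their values were seen. No member changed sign between the tools. The median fold changes of the role groups kept their sign under all 5 alternatives, within 0.27 to 0.33 for chaperones, 0.19 to 0.21 for isomerases, 0.12 to 0.23 for degradation, 0.080 to 0.095 for the sensing step and -0.26 to -0.18 for the ATF4 arm, each shift under the median DESeq2 SE of its group. The minimum of 1 CPM removed no member, so it could not move these medians. Another alternative subtracted the median of all genes of at least 1 CPM, which was only 0.0017, so it could hardly move them. The cause of the larger Cuffdiff counts was not tested. No paired analysis was possible because the deposited table holds no values per library, and for the same reason no rat could be left out. DESeq2 standard errors of the members ran from 0.079 to 0.21, and the number of animals that the smaller differences would need was not assessed.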

Other observations

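Genes outside the 33 whose RefSeq promoter window holds an exact ERSE or ERSE-II were looked up by symbol in the authors' deposited table, a set chosen by sequence and not by value. The 16 genes found occupy 17 rows, with a median edgeR log2 fold change of 0.038, 9 above 0 and 8 below, and 0 called by edgeR in the authors' deposited table. Ero1b, an oxidase that recharges the disulfide isomerases, had the largest fold change of these, 0.62, at 49.4 FPKM in CDAA_PTS and 32.9 in CDAA (edgeR adjusted p 0.057, authors' deposited table). It was singled out after its values were seen. DESeq2 and Cuffdiff both call it (adjusted p 0.0499 and q 0.0063, authors' deposited table), with a DESeq2 value of 0.50 and an SE of 0.16.

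Other genes with the UPRE letters TGACGTGG in their window numbered 95 in the authors' deposited table, with a median edgeR fold change of -0.0035, 1 called higher and 2 called lower, where 3.41% of all genes were called. Those with CARE numbered 232 genes in 236 rows, with a median of 0.011, 2 called higher and 4 called lower in the edgeR block of the authors' deposited table. In both sets the medians lie near that of all genes, and the calls show no excess over that share.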
